A study of Mus musculus with 12 samples.

Results

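The histone genes described here are the mouse genes whose GENCODE M21 symbol starts with Hist1h, Hist2h, Hist3h or Hist4h and that had at least 10 counts in at least 2 of 12 libraries. The annotation holds 70 such genes, and 62 of them met this limit, among 19384 genes tested in all. Of the 62, 57 were replication-dependent genes (5 for linker histone H1, 15 for H2A, 14 for H2B, 10 for H3 and 13 for H4). The others were the germline genes Hist1h2aa (H2A) and Hist1h2ba (H2B), the testis H1 gene Hist1h1t, and the pseudogenes Hist1h2al and Hist3h2bb-ps. All 53 Hist1 members lie on chromosome 13, and 5 members belong to Hist2, 3 to Hist3 and 1 to Hist4. The members held 117 to 203630 counts over the 12 libraries, with a median of 11861. The 8 annotated genes under the limit were Hist1h2aj, Hist1h2bq, Hist1h2br, Hist2h2aa1, Hist2h2aa2, Hist2h2bb, Hist2h3b and Hist2h3c1.

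RNA came from the E14 line of mouse embryonic stem cells, of the genotype 2C::3xtbGFP, a turboGFP (tbGFP) reporter of the state that resembles the 2-cell embryo. All groups were plated without the 2 kinase inhibitors used for expansion, were collected at 0, 6 or 24 h of sorbitol (an osmolyte that draws water out of cells), and were then sorted by the reporter, giving a tbGFP-positive and a tbGFP-negative fraction. That gave 6 groups of 2 libraries of total RNA, and 2306870 to 7900178 counts per library. Culture time without sorbitol has no group of its own, so sorbitol and time cannot be told apart. The labels do not say whether the replicates are separate cultures. The p-values therefore measure only how these libraries spread, which may be technical. Levels are normalized CPM, which are counts relative to the library size after TMM scaling, given as replicate 1 and then replicate 2. Differences are log2 fold changes ± SE. Each adjusted p comes from the quasi-likelihood test of edgeR, adjusted by Benjamini and Hochberg's method across 19384 genes, and a value under 0.05 is a call. These are bulk libraries, so a change in the number of cells that express a gene and a change in RNA per cell cannot be told apart.

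Histone proteins package DNA. H2A, H2B, H3 and H4 form the nucleosome core, and H1 binds the linker DNA between cores. Replication-dependent genes are transcribed in S phase from clusters, and their mRNAs end in a short stem-loop in place of a poly(A) tail, which the stem-loop binding protein Slbp holds through processing, translation and decay. Hist1h2aa and Hist1h2ba encode TH2A and TH2B, core histones known from testis and oocytes, and Hist1h1t encodes the linker histone of spermatocytes.

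Hist1h2aa (ENSMUSG00000060081.1, chr13:23934462-23934851, plus strand) and Hist1h2ba (ENSMUSG00000050799.3, chr13:23933773-23934156, minus strand) are single-transcript protein-coding genes that point away from each other, with 305 bases between them (GRCm38). Their promoter windows in RefSeq, 250 bases before to 50 after the start site, share 220 bases, so a single intergenic stretch serves as the upstream sequence of both. It is shown first because the pair moved together. Hist1h1t (ENSMUSG00000036211.4, chr13:23695814-23696725, plus strand) moved in the same direction from another place. Hist1h2bb, the H2B gene with the most counts, is shown as a replication-dependent comparison, and Hist3h2a because its level differed at 24 h. The windows are the 250 bases before the RefSeq start site (GRCm38.p6), read along the gene's strand: chr13:23934187-23934436 for Hist1h2aa, chr13:23695561-23695810 for Hist1h1t, chr13:23746484-23746733 for Hist1h2bb and chr11:58954435-58954684 for Hist3h2a. Capitals mark matches, on either strand, to TATAAA (the TATA box), CCAAT (bound by NF-Y), ATTTGCAT (the octamer bound by POU factors), TGACGT (a core of sites for CREB and ATF factors) and TGANTCA (bound by AP-1).
Hist1h2aa: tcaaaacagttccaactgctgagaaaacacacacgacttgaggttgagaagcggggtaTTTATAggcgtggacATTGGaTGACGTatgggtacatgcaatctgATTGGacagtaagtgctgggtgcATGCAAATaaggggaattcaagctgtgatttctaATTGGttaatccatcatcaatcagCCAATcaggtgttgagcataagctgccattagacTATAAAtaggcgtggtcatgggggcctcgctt
Hist1h1t: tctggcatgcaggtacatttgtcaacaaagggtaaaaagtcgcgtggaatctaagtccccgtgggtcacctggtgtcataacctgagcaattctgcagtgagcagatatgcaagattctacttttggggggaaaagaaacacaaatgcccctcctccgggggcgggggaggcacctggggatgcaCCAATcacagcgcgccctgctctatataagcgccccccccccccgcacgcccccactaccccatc
Hist1h2bb: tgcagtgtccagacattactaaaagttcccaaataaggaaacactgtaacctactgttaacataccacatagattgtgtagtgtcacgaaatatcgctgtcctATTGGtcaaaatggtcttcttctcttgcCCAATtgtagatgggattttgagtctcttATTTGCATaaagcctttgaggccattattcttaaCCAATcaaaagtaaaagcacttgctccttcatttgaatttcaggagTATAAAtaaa
Hist3h2a: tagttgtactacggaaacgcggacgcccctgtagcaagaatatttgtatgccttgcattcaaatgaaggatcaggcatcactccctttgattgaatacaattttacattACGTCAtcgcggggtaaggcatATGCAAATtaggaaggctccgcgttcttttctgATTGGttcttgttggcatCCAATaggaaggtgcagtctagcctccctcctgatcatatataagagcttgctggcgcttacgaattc

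The Hist1h2aa window held TATAAA at -192 and -32 from the start site, CCAAT at -177, -147, -90 and -66, the octamer at -124 and TGACGT at -171. Read from Hist1h2ba, the same stretch holds all 4 CCAAT matches, the octamer at -164, TGACGT at -115 and TATAAA at -94. In Hist1h1t the only match was CCAAT at -65. Hist1h2bb held the octamer at -90, CCAAT at -147, -119 and -56, and TATAAA at -10, while Hist3h2a held the octamer at -119, CCAAT at -86 and -68, and TGACGT at -141. Each motif was searched by itself on both strands of the 300 bases, so matches may overlap. Only TATAAA was searched as a TATA box, and the windows of Hist1h1t and Hist3h2a hold tatataag, which it does not match. Of the 54 members with a RefSeq promoter, 45 held CCAAT, 34 TATAAA, 14 TGACGT, 12 the octamer and 3 TGANTCA. Among all 32851 promoters of this length, 37.41% held CCAAT, 13.62% TATAAA, 7.51% TGACGT, 1.74% the octamer and 7.81% TGANTCA. A match describes the letters only.

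The histone stem-loop was searched downstream of the stop codon on the sense strand, as a pattern of 16 bases with some letters of stem and loop left free. Pairing of the stem was not required, but it was complete in every member with a match. The pattern was found in 41 of 62 members, 22 to 55 bases after the stop: in 40 of the 57 replication-dependent genes and in Hist1h1t. Of 21834 other protein-coding genes, 91 (0.42%) held a match to its letters, paired or not, anywhere in a transcript. Stems beginning GGCTCT occurred in all 4 H1, 9 H2A, 10 H2B and 7 H3 members with a stem-loop, and in none of 11 H4 members, of which 9 began GGCCCT and 2, Hist1h4b and Hist1h4j, began GGTCCT. Examples are given here with the stem in capitals and the loop in lower case, since they show that Hist1h1t carries the same element as the replication-dependent genes.
Hist1h1t: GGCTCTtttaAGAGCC
Hist1h2bb: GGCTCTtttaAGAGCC
Hist3h2a: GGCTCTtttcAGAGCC
Hist1h4d: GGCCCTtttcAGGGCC

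The models of Hist1h2aa and Hist1h2ba end at their stop codons, so no sequence that could hold a stem-loop was searched for them. Another 12 members also end within 30 bases of the stop. The remaining members without a match to the pattern were the 2 pseudogenes, which have no coding sequence, and Hist1h1a, Hist1h2bc, Hist1h3g, Hist1h4a and Hist2h2be.

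Hist1h2aa and Hist1h2ba rose at 6 h of sorbitol in both sorted fractions and were lower again at 24 h. In tbGFP-negative cells Hist1h2aa stood at 17.9 and 31.9 CPM before sorbitol, 425 and 363 CPM after 6 h, then 38.7 and 27.7 CPM after 24 h. The tbGFP-positive cells held 60.1 and 53.1, then 364 and 329, then 63.2 and 52.7 CPM. All 4 libraries at 6 h lay above all 8 others, and the 0 h and 24 h libraries overlapped within each fraction. The increase at 6 h was 15.3-fold in tbGFP-negative cells (log2 3.94 ± 0.27, adjusted p = 1.72e-06) and 6.11-fold in tbGFP-positive cells (2.61 ± 0.25, adjusted p = 9.05e-05). From 6 to 24 h the gene fell by 3.57 ± 0.26 (adjusted p = 9.89e-07) and by 2.58 ± 0.25 (adjusted p = 0.000459) on the log2 scale. Between 6 and 24 h in tbGFP-positive cells, no tested gene had a smaller p-value.

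Hist1h2ba, across the intergenic stretch, followed the same course. Its tbGFP-negative levels were 27.3 and 29.0 CPM before sorbitol, 369 and 335 CPM after 6 h, then 53.4 and 50.2 CPM after 24 h. Its tbGFP-positive levels were 97.7 and 80.1, then 422 and 239, then 86.4 and 65.5 CPM. Again the 6 h libraries lay above all others, but replicate 2 of the 6 h tbGFP-positive group was closer to the rest. At 6 h the gene was 12.5-fold higher in tbGFP-negative cells (log2 3.64 ± 0.27, adjusted p = 2.52e-06) and 3.71-fold higher in tbGFP-positive cells (1.89 ± 0.25, adjusted p = 0.00099). It fell by 2.76 ± 0.25 (adjusted p = 1.01e-05) and 2.12 ± 0.25 (adjusted p = 0.000684) from 6 to 24 h. At 24 h in tbGFP-negative cells both libraries were still above both 0 h libraries, but the difference missed the threshold (0.88 ± 0.25, adjusted p = 0.0702). It was called in 8 of 19 alternatives, among them the replicate block (adjusted p = 0.0482), the 4 libraries alone (0.00412) and DESeq2 (0.0459).

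Hist1h1t, farther along the same chromosome, rose as well. Its tbGFP-negative levels were 30.2 and 35.9 CPM before sorbitol, 157 and 159 CPM after 6 h, then 29.0 and 30.2 CPM after 24 h. Its tbGFP-positive levels were 51.3 and 49.7, then 172 and 141, then 48.8 and 28.1 CPM. The 6 h libraries again did not overlap the others. The increase at 6 h was 4.75-fold (2.25 ± 0.26, adjusted p = 0.000167) and 3.09-fold (1.63 ± 0.25, adjusted p = 0.00281), and from 6 to 24 h it fell by 2.42 ± 0.26 (adjusted p = 4.01e-05) and 2.02 ± 0.25 (adjusted p = 0.000749). These 3 genes were the only members called higher at 6 h in either fraction: 3 of 62 in tbGFP-negative cells, where 4.44% of all genes were called and 3.22% were called higher. In tbGFP-positive cells 3 members were called higher and 1 lower, where 5.9% of all genes were called, 2.14% higher and 3.76% lower.

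**Figure D1:**
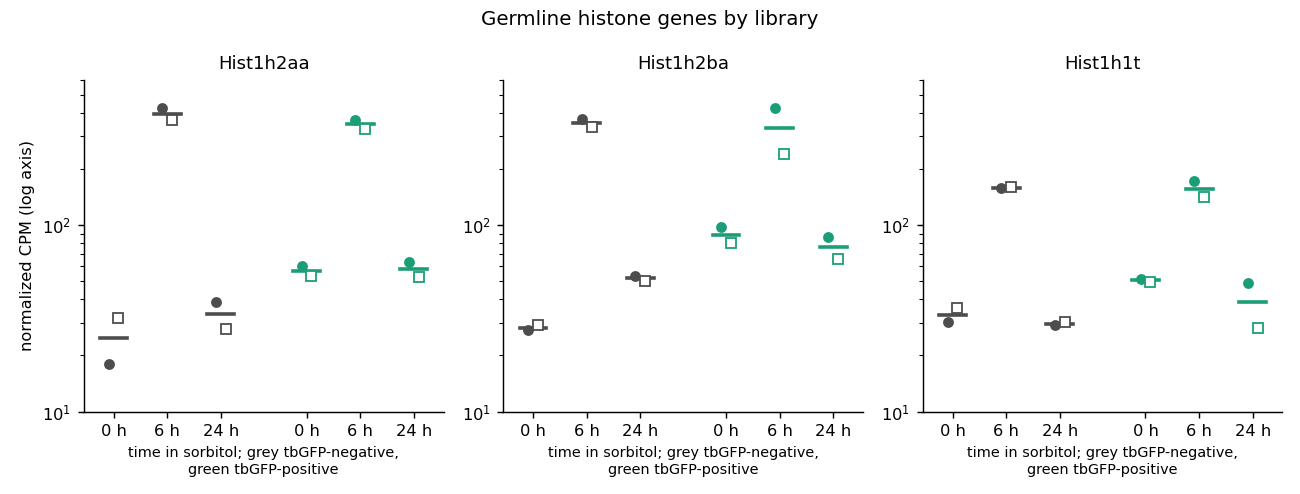
Normalized CPM (log axis) of Hist1h2aa, Hist1h2ba and Hist1h1t in the 12 libraries by hours of sorbitol, with filled circles for replicate 1, open squares for replicate 2 and bars for the group mean; grey is tbGFP-negative and green tbGFP-positive. The 6 h libraries stand above the rest in every panel, with Hist1h2aa at 329 to 425 CPM.

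The calls in tbGFP-negative cells held in all 19 alternatives for these genes. Those in tbGFP-positive cells were less stable. Fitted on the 4 tbGFP-positive libraries of the comparison alone, the adjusted p at 6 h against 0 h was 0.0347 for Hist1h2aa, 0.135 for Hist1h2ba and 0.15 for Hist1h1t, and at 24 h against 6 h it was 0.19, 0.209 and 0.209. The tbGFP-positive libraries at 6 h also stood apart in their replicates: across all tested genes the log2 ratio of replicate 1 to 2 ran from -6.39 to 6.34, against -4.23 to 4.8 in the other 5 groups. Without replicate 1 of that group, the increase at 6 h was 2.44 for Hist1h2aa, 1.33 for Hist1h2ba and 1.39 for Hist1h1t, and without replicate 2 it was 2.6, 2.16 and 1.68, each with a call.

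Before sorbitol the pair was higher in the sorted tbGFP-positive cells. Hist1h2ba was 3.15-fold higher (1.66 ± 0.25, adjusted p = 0.000334), and kept its call in all 19 alternatives. Hist1h2aa was 2.21-fold higher (1.14 ± 0.25, adjusted p = 0.00869), with no overlap between fractions. That call was lost with upper-quartile factors (adjusted p = 0.0772), with library totals alone (0.105), and without replicate 1 of the tbGFP-negative (0.142) or tbGFP-positive cells (0.066) at 0 h. For Hist1h1t the difference was 0.60 ± 0.25 (adjusted p = 0.231). These were 2 of 62 members called at 0 h, both higher, where 7.11% of all genes were called and 6.66% were called higher.

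At 6 h no difference between the fractions was called for the pair or Hist1h1t. The difference, tbGFP-positive minus tbGFP-negative, was -0.19 for Hist1h2aa (95% interval -0.65 to 0.28), -0.10 for Hist1h2ba (-0.56 to 0.37) and -0.02 for Hist1h1t (-0.49 to 0.45). Without replicate 1 of the 6 h tbGFP-positive group, Hist1h2ba was lower in them by 0.60 (adjusted p = 0.0478). At 24 h Hist1h2aa differed by 0.80 ± 0.24 (adjusted p = 0.0818) and Hist1h2ba by 0.55 ± 0.24 (adjusted p = 0.36). Both were called at 24 h without the tbGFP-positive libraries at 6 h (adjusted p = 0.00697 and 0.0228), where the libraries compared are the same. No member was called between fractions at 6 h, where 12.1% of all genes were called (7 members had an unadjusted p under 0.05, and DESeq2 called 3), or at 24 h, where 5.46% were (7 members and 2).

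Whether the increase at 6 h differed between the fractions was tested as an interaction. The gap between fractions at 6 h against that at 0 h was -1.75 ± 0.35 for Hist1h2ba (adjusted p = 0.0568), -1.33 ± 0.35 for Hist1h2aa (adjusted p = 0.138) and -0.62 ± 0.35 for Hist1h1t (adjusted p = 0.458). None of the 62 members passed, and 0.17% of all genes did. For Hist1h2ba the call changed in 5 of 18 alternatives. The interaction was -2.27 (adjusted p = 8.12e-05) without replicate 1 of the 6 h tbGFP-positive group and -1.44 (0.00255) without replicate 2. It was also called with the replicate block (-1.75, adjusted p = 0.0351), without the filter on low counts, and by DESeq2, which called 1 member in all. By edgeR 3 members had an unadjusted p under 0.05. At 24 h against 0 h no member passed (0.97% of all genes did, and 3 members had an unadjusted p under 0.05).

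A share within a library does not depend on how libraries are scaled. Hist1h2ba made up 0.588% and 0.802% of the counts of all H2B members except the pseudogene in tbGFP-negative cells before sorbitol, 9.15% and 9.5% after 6 h, then 1.79% and 1.64% after 24 h. In tbGFP-positive cells its share was 1.97% and 2.28%, then 9.49% and 7.53%, then 1.92% and 2.29%. Both libraries at 6 h were above every other library of their fraction. Hist1h1t went from 0.341% and 0.478% of H1 counts to 1.65% and 1.78%, and back to 0.381% and 0.413%, in tbGFP-negative cells. Hist1h2aa made up 11.9% and 25.4% of H2A counts at 0 h and 72.4% and 77% at 6 h in the same cells. How much of their sequence is unique to them varied widely among the other H2A genes, and the part of this in the share was not tested. Of all 50-base windows of a transcript, the share found in no other annotated transcript was 97.65% for Hist1h2aa, 61.79% for Hist1h2ba and 100% for Hist1h1t. Its median over replication-dependent genes was 32.89% for H2A (6.5% to 85.94%), 42.8% for H3, 55.5% for H2B, 60.5% for H4 and 97.75% for H1. How the authors counted reads that fit several genes is not given in the sources used here, so counts of near-identical copies are uncertain.

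Within 200 kb of the pair lie 11 members, the pair included, and Hist1h2aa and Hist1h2ba were the only ones called at 6 h in either fraction. Of 15 other annotated genes in the window 3 were tested (Carmil1, 4930558J22Rik and Gm11336), and none was called at 6 h. Of 16 listed markers of germ cells, 6 were tested, and none was called at 6 h against 0 h. Their summed level was 19.7 to 21.4 CPM in tbGFP-negative cells at 0 h, 34.1 to 36.9 CPM at 6 h and 8.14 to 10.4 CPM at 24 h. Over these times Zp3 was at 13.4 and 17.0, then 20.3 and 22.3, then 3.93 and 5.33 CPM. Gdf9 was at 2.24 and 1.14, then 9.06 and 6.45, then 0.310 and 0 CPM, while Sycp2 was lowest at 6 h (0.335 and 0 CPM). In tbGFP-positive cells the 0 h and 6 h levels of Zp3 overlapped, as did those of Gdf9. Ddx4, Stra8, Sycp3, Tdrd1, Prm1, Tnp1 and Zp2 had no counts at 6 h in either fraction. In this table a 0 need not mean absence, since some genes that most cells use, such as H2afz and Fen1, also had few or no counts. Markers of 2-cell-like cells took another course than the pair in tbGFP-negative cells. Their summed level was at most 41.7 CPM at 0 h, 80.2 CPM at 6 h and 959 CPM at 24 h. Of these markers 5 of 16 were called higher at 6 h and 11 of 16 at 24 h, where 3.22% and 2.7% of all genes were called higher against 0 h. The part of these markers in the levels of the pair was not tested.

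The 57 replication-dependent genes together took 1.36% to 2.5% of all counts in a library, against 0.00525% to 0.0728% for the germline pair. In tbGFP-negative cells the share was 2.5% and 1.93% before sorbitol, 1.96% and 1.88% after 6 h, then 1.91% and 1.96% after 24 h. In tbGFP-positive cells it was 2.06% and 1.36%, then 1.72% and 1.47%, then 2.13% and 1.38%. The groups overlapped, and in tbGFP-positive cells the replicates were as far apart as the groups.

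**Figure D2:**
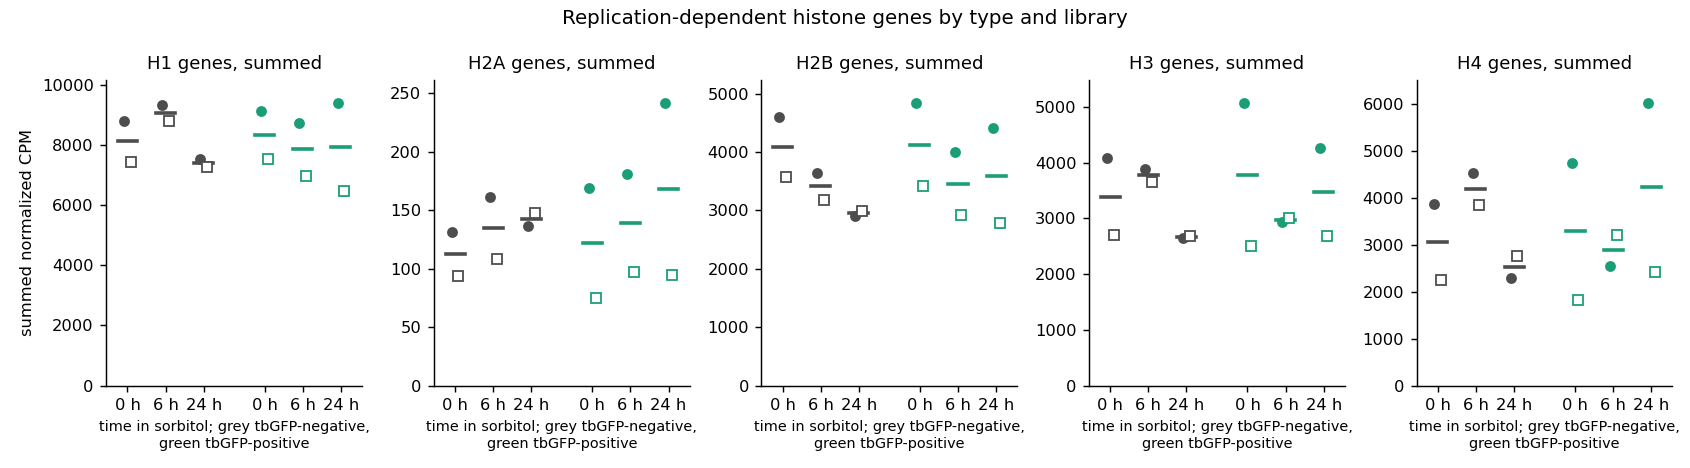
Summed normalized CPM of the replication-dependent genes of each histone type in the 12 libraries by hours of sorbitol (filled circle replicate 1, open square replicate 2, bar group mean; grey tbGFP-negative, green tbGFP-positive). The replicates part most for H4 in tbGFP-positive cells, with 4742 and 1827 CPM before sorbitol, then 6014 and 2430 CPM after 24 h.

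Over the replication-dependent genes the replicates were compared gene by gene. Replicate 1 was above replicate 2 for 54 of 57 genes in tbGFP-positive cells at 0 h, with a median log2 ratio of 0.94, for 52 at 24 h (0.76) and for 36 at 6 h (0.15). In tbGFP-negative cells it was above for 48 genes at 0 h (0.48), 50 at 6 h (0.23) and 22 at 24 h (-0.06). Over all tested genes the median log2 ratio was -0.04 to 0.11 in the 6 groups. In tbGFP-positive cells the H4 median was 1.40 at 0 h, -0.23 at 6 h (4 of 13 genes higher in replicate 1) and 1.36 at 24 h, and that of H1 was 0.27, 0.36 and 0.52. The low-count H2A genes differed less than H4 at 0 h, with a median of 0.96, and more at 24 h. The most abundant H4 genes show it: Hist1h4d was at 1024 and 491 CPM and Hist1h4a at 705 and 256 CPM in tbGFP-positive cells at 0 h. The H3 genes Hist1h3e (1085 and 468 CPM) and Hist1h3c (876 and 419 CPM) did so too. What differs between these replicates is not given in the labels.

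Against it, few replication-dependent genes passed in any comparison. From 6 to 24 h in tbGFP-negative cells 44 of 57 had a negative difference, with a median of -0.53, but Hist3h2a was the only 1 of them called higher and Hist1h1a the only 1 called lower (7.91% of all genes were called, 3.62% higher and 4.3% lower). With the germline pair and Hist1h1t, 4 of 62 members were called lower. The median of the 57 replication-dependent genes relative to that of all genes was -0.69. It was between -0.70 and -0.69 under all 4 scalings, although the all-gene median itself was 0.16 with TMM and 0.56 with library totals alone. Relative to all genes the same median was 0.16 for 6 h against 0 h and -0.52 for 24 h against 0 h in tbGFP-negative cells. In tbGFP-positive cells the 3 relative medians were between -0.12 and 0.03. Between fractions they were 0.11 at 0 h, -0.17 at 6 h and 0.35 at 24 h, and these kept their sign under all 4 scalings, while without that reference the 24 h median changed from 0.30 to -0.15 with library totals alone.

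For the summed replication-dependent genes, the ratio of replicate 1 to 2 was 1.34, 1.10 and 0.98 in tbGFP-negative cells at 0, 6 and 24 h. In tbGFP-positive cells it was 1.56, 1.14 and 1.68. A fit on the 4 tbGFP-negative libraries of a comparison alone called more genes, and the reason was not tested. From 6 to 24 h it called 39 of 57 replication-dependent genes, 34 lower and 5 higher, where 40.2% of 15748 tested genes were called in either direction. Called lower were 11 of 13 H4, 9 of 10 H3, 8 of 14 H2B, 4 of 15 H2A and 2 of 5 H1 genes. The share of all genes called in 1 direction alone is not given here for these fits. For 24 h against 0 h it called 19 of 55, 16 lower and 3 higher (20.8% of 15633 genes in either direction), and 10 of the lower genes were H2B. For 6 h against 0 h it called 13 of 55, 7 higher and 6 lower (29.4% of 13400 genes in either direction). The summed levels behind this were, for H4, 4522 and 3852 CPM after 6 h, then 2284 and 2750 CPM after 24 h, with no overlap, against 3865 and 2248 CPM before sorbitol. For H3 they were 3890 and 3654 CPM, then 2647 and 2676 CPM, against 4084 and 2701 CPM. Hist1h4a, as an example, had 876 and 734 CPM after 6 h, then 292 and 373 CPM after 24 h (-1.28 ± 0.57, adjusted p = 0.243 with all 12 libraries). Its levels at 6 h and 24 h do not overlap, and its 0 h levels of 549 and 293 CPM lay below those at 6 h and overlapped those at 24 h.

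**Figure D3:**
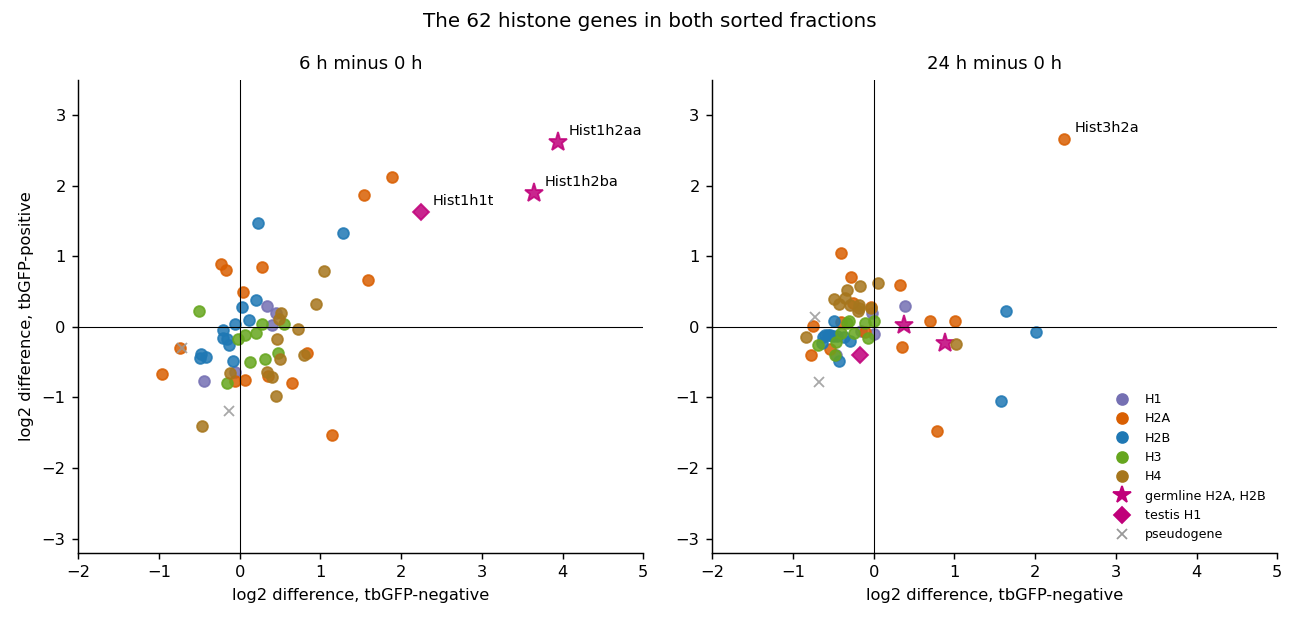
Log2 difference from 0 h of each of the 62 members in tbGFP-negative cells (horizontal) and tbGFP-positive cells (vertical), at 6 h (left) and 24 h (right), coloured by histone type; stars are Hist1h2aa and Hist1h2ba, the diamond is Hist1h1t and crosses are pseudogenes. At 6 h the 3 germline and testis genes lie at the upper right, at 2.25 to 3.94 and 1.63 to 2.61, and at 24 h Hist3h2a does, at 2.36 and 2.66.

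Among H2B genes, the most abundant did not follow H4. Hist1h2bb stood at 858 and 791 CPM in tbGFP-negative cells before sorbitol, 629 and 549 CPM after 6 h, then 612 and 608 CPM after 24 h. Both later times lay below 0 h without overlap, but neither difference passed (-0.49 ± 0.25 with an adjusted p of 0.339, and -0.43 ± 0.25 with 0.504). Each was called in 5 of 19 alternatives: on its 4 libraries alone (-0.59 and -0.58, adjusted p = 4.96e-05 and 2.1e-05), without the filter on low counts, and without either or both tbGFP-positive libraries at 6 h. In tbGFP-positive cells it was at 970 and 962, then 1000 and 475, then 784 and 602 CPM, with the 6 h replicates apart. Hist1h2bc had the same shape in tbGFP-negative cells, at 541 and 489, then 396 and 372, then 377 and 422 CPM (adjusted p = 0.366 and 0.553).

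Among members not called, the low-level H2A gene Hist1h2ap had the largest positive difference at 6 h in both fractions, and Hist1h2an was also high. Hist1h2an stood at 3.36 and 3.52 CPM in tbGFP-negative cells before sorbitol and at 15.1 and 4.99 CPM after 6 h (1.54 ± 0.81, adjusted p = 0.358). Hist1h2ap was at 0.373 and 0.909 CPM and then at 3.19 and 2.08 CPM (1.89 ± 1.15, adjusted p = 0.443). In tbGFP-positive cells their differences were 1.87 (adjusted p = 0.168) and 2.12 (adjusted p = 0.254). Hist1h2ad, also not called at 6 h, went from 2.99 and 3.41 to 10.9 and 8.53 CPM in tbGFP-negative cells, without overlap. Its tbGFP-positive levels overlapped, at 9.96 and 5.68 and then 20.5 and 4.82 CPM. For libraries of this size 3 counts are 0.38 to 1.30 CPM, so the lowest of these levels rest on a few counts. Hist1h2ac, the H2A gene of the replication-dependent group with the most counts after Hist3h2a, was at 37.7 CPM or less in every library and was called in no comparison. The pseudogenes Hist1h2al (21.4 to 90.2 CPM) and Hist3h2bb-ps (5.11 to 34.7 CPM) were not called in any comparison.

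Among the linker genes 2 had opposite courses. Hist1h1a (RefSeq H1f1), the member with the most counts, had tbGFP-negative levels of 3121 and 2851 CPM before sorbitol, 3879 and 3697 CPM after 6 h, then 2250 and 2086 CPM after 24 h. Its tbGFP-positive levels were 3044 and 2880, then 4088 and 3182, then 2533 and 1955 CPM. The 3 times did not overlap in either fraction. It fell by 0.81 ± 0.15 (adjusted p = 0.00339) and 0.70 ± 0.15 (adjusted p = 0.013) from 6 to 24 h, and its increase at 6 h did not pass (0.34 ± 0.15 with an adjusted p of 0.251, and 0.30 ± 0.15 with 0.238). The fall in tbGFP-negative cells was not called with library totals alone (adjusted p = 0.0982) or without replicate 2 at 24 h (0.055), and that in tbGFP-positive cells not without replicate 2 at 24 h (0.169) or on its 4 libraries (0.219).

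Hist1h1d (RefSeq H1f3) had the opposite shape. Its tbGFP-negative levels were 1903 and 1647 CPM before sorbitol, 1412 and 1188 CPM after 6 h, then 1808 and 1700 CPM after 24 h. Its tbGFP-positive levels were 1728 and 1343, then 916 and 895, then 2151 and 1385 CPM. Both fractions were lowest at 6 h without overlap. In tbGFP-positive cells it fell by 0.76 ± 0.19 at 6 h (adjusted p = 0.0308) and rose by 0.96 ± 0.19 from 6 to 24 h (adjusted p = 0.00837). In tbGFP-negative cells the differences were -0.45 ± 0.19 (adjusted p = 0.232) and 0.43 ± 0.19 (adjusted p = 0.201). The call at 6 h was lost without replicate 1 of the 0 h tbGFP-positive (adjusted p = 0.119) or tbGFP-negative libraries (0.0534) and on the 4 libraries alone (0.38). The later call was lost without replicate 1 at 24 h (0.121) and on its 4 libraries (0.217).

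As a share of the counts of the 5 replication-dependent H1 genes, which no scaling affects, the order of the times was the same. Hist1h1a held 35.4% and 38.2%, then 41.4% and 41.9%, then 29.7% and 28.6% over the 3 times in tbGFP-negative cells. In tbGFP-positive cells its share was 33.2% and 38.1%, then 46.4% and 45.4%, then 26.9% and 30.2%. The order 6 h, 0 h, 24 h was the same in both fractions, with no overlap between times. Hist1h1d held 21.6% and 22.1%, then 15.1% and 13.5%, then 23.9% and 23.3% in tbGFP-negative cells, and 18.8% and 17.8%, then 10.4% and 12.8%, then 22.8% and 21.4% in tbGFP-positive cells, the reverse order. With 2 libraries a group, an exact permutation test of such a share cannot pass 0.05, so none was made. Weighted by annotated exon length, the share of Hist1h1a in tbGFP-negative cells was 55.0% and 58.2% before sorbitol and 58.3% in both libraries after 6 h, so these times lay close together, then 49.1% and 47.1% after 24 h. Per kilobase of annotated exon Hist1h1a held 46.2% to 63.8% of H1 counts and Hist1h1d 1.38% to 3.94%, since the annotated Hist1h1d transcript is 7425 bases long and that of Hist1h1a 741 bases. Hist1h1b, Hist1h1c and Hist1h1e were called in no comparison. Hist1h1c was closest, at -0.64 ± 0.22 for 6 h against 0 h in tbGFP-positive cells (adjusted p = 0.0952). Hist1h1e shares 496 bases with Hist1h2be on the same strand, so how reads were divided between them is uncertain.

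**Figure D4:**
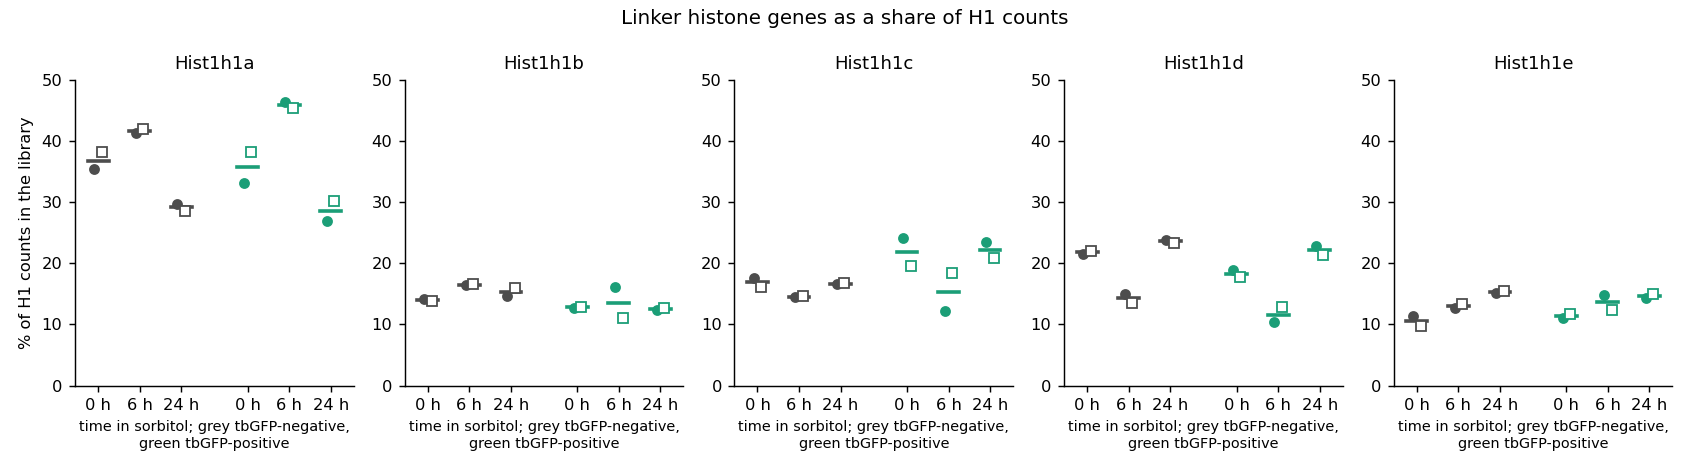
Share of each of the 5 replication-dependent H1 genes in the H1 counts of a library (%), by hours of sorbitol (filled circle replicate 1, open square replicate 2, bar group mean; grey tbGFP-negative, green tbGFP-positive). Hist1h1a is highest at 6 h (41.4% to 46.4%) and lowest at 24 h (26.9% to 30.2%), and Hist1h1d is lowest at 6 h (10.4% to 15.1%).

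Hist3h2a (ENSMUSG00000078851.4, RefSeq H2aw, chr11:58954685-58956830, plus strand) was the replication-dependent gene called higher at 24 h against 0 h. Its tbGFP-negative levels were 8.59 and 8.18 CPM before sorbitol, 8.39 and 6.45 CPM after 6 h, then 47.7 and 38.1 CPM after 24 h. Its tbGFP-positive levels were 4.98 and 1.73, then 5.73 and 6.24, then 19.0 and 24.4 CPM. The 24 h libraries lay above all others, and those of tbGFP-negative cells above those of tbGFP-positive cells (-0.98 ± 0.43, adjusted p = 0.36). Against 0 h the increase was 5.12-fold in tbGFP-negative cells (2.36 ± 0.46, adjusted p = 0.00683) and 6.31-fold in tbGFP-positive cells (2.66 ± 0.48, adjusted p = 0.0221). Against 6 h it was 2.52 ± 0.46 (adjusted p = 0.00292) and 1.85 ± 0.46 (adjusted p = 0.0249). It was the only member called at 24 h against 0 h in either fraction, where 3.99% of all genes were called in tbGFP-negative cells (2.7% higher) and 0.552% in tbGFP-positive cells (0.304% higher). From 6 to 24 h in tbGFP-positive cells it and Hist1h1d were called higher and 4 members lower, and 8.82% of all genes were called, 5.91% higher and 2.9% lower. Other low-level genes, not called, were also higher at 24 h than at 0 h in tbGFP-negative cells without overlap. Hist2h2be went from 3.36 and 5.23 to 15.3 and 12.2 CPM, Hist1h2be from 0.747 and 2.73 to 7.34 and 8.25 CPM, and Hist2h2ab from 5.97 and 6.93 to 11.2 CPM in both. In tbGFP-positive cells at 24 h they were at 7.99 and 8.69, 3.90 and 5.74, and 3.02 and 2.21 CPM. The fit on tbGFP-negative libraries alone called 19 of 55 replication-dependent genes at 24 h against 0 h, 3 higher and 16 lower. In that fit 20.8% of all genes were called in either direction.

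The size of the Hist3h2a increase was steadier than its call. The difference at 24 h against 0 h lay between 2.07 and 2.41 in tbGFP-negative cells over the alternatives. The call was lost without either replicate at 0 h (adjusted p = 0.0881 without replicate 1 and 0.164 without replicate 2) or at 24 h (0.135 and 0.0546). In tbGFP-positive cells the difference lay between 2.08 and 3.59, and 9 of the libraries, left out in turn, took away the call (adjusted p up to 0.206). Against 6 h the call was lost in tbGFP-negative cells without replicate 2 at 6 h (0.0722) or replicate 1 at 24 h (0.0597), and in tbGFP-positive cells without any of the 4 libraries at 24 h (up to 0.128) or on its own 4 libraries (0.217). Hist3h2a lies wholly inside the gene Trim17 on the same strand, and 708 of its 2146 exon bases are exons of Trim17 too. Trim17 held 30 counts in all 12 libraries and Hist3h2a 1306, so how reads were divided between them is uncertain. Its neighbour Hist3h2ba, an H2B gene that starts at 58948920, was not called: its tbGFP-negative levels were 53.4 and 35.7 CPM before sorbitol and 33.1 and 27.5 CPM after 24 h (-0.54 ± 0.31, adjusted p = 0.517).

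**Figure D5:**
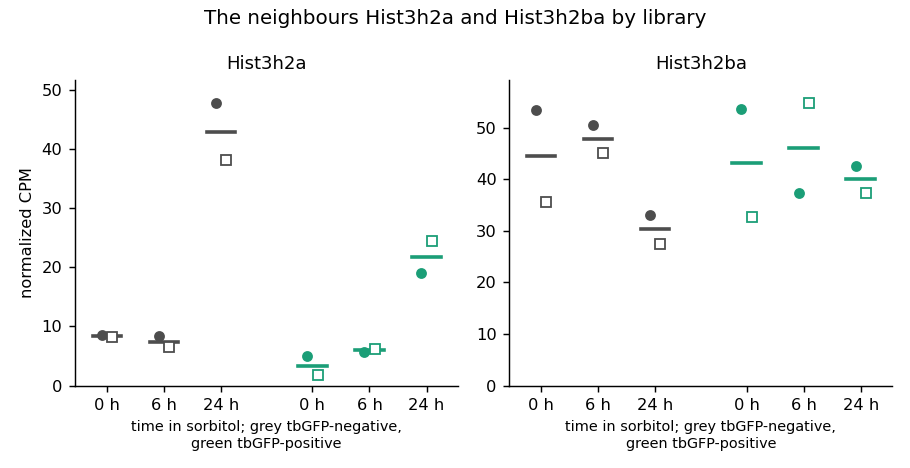
Normalized CPM of Hist3h2a (left) and its neighbour Hist3h2ba (right) in the 12 libraries by hours of sorbitol (filled circle replicate 1, open square replicate 2, bar group mean; grey tbGFP-negative, green tbGFP-positive). Hist3h2a is at 1.73 to 8.59 CPM at 0 and 6 h and at 19.0 to 47.7 CPM at 24 h.

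Of 20 listed factors that make or process histone mRNA, 15 were tested. Npat, the coactivator of replication-dependent histone genes, was at 266 to 409 CPM and was called in no comparison. Slbp was at 85.1 CPM in replicate 1 of the tbGFP-positive 6 h group and at 12.3 to 31.8 CPM in the other 11 libraries. Its call between fractions at 6 h was 1.74 ± 0.54 (adjusted p = 0.0499), with the other replicate inside the range of the rest. In the same comparison Srrt (Ars2, a partner of the cap-binding complex) was lower by 1.91 ± 0.47 (adjusted p = 0.016), the cap-binding gene Ncbp2 by 0.70 ± 0.22 (adjusted p = 0.0465) and the exonuclease gene Eri1, which trims the stem-loop, by 0.70 ± 0.21 (adjusted p = 0.0439). No factor was called at 6 h or 24 h against 0 h in tbGFP-negative cells. Casp8ap2 had 14 counts in all and was not tested.

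Histone chaperones, which carry histones to and from DNA, were all tested, 23 of 23. In tbGFP-negative cells 2 rose and 2 fell at 6 h, 4 of 23 called, where 4.44% of all genes were called. Nasp, a chaperone of H1 and of H3 with H4, rose by 0.64 ± 0.14 (adjusted p = 0.0197) and Supt16, a subunit of the FACT complex, by 0.54 ± 0.14 (adjusted p = 0.0454). Cabin1 of the HIRA complex and Hjurp, the chaperone of the centromeric histone, fell by 0.80 ± 0.16 (adjusted p = 0.0111) and 0.76 ± 0.19 (adjusted p = 0.0302), and both also fell in tbGFP-positive cells (by 1.10 ± 0.17 and 0.78 ± 0.19, adjusted p = 0.00281 and 0.0257). The tbGFP-negative levels of Nasp were 1164 and 1187 CPM before sorbitol, 1829 and 1823 CPM after 6 h, then 671 and 721 CPM after 24 h. It fell by 1.39 ± 0.15 from 6 to 24 h (adjusted p = 3.87e-05) and by 1.02 ± 0.15 in tbGFP-positive cells (adjusted p = 0.00133). Nap1l1, which carries H2A with H2B, fell by 1.11 ± 0.21 (adjusted p = 0.00388) and 1.04 ± 0.21 (adjusted p = 0.00921).

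Replacement and variant histones, made outside S phase or for special chromatin, were tested for 11 of 17 genes. H2afj, an H2A variant, had tbGFP-negative levels of 13.1 and 11.8 CPM before sorbitol, 58.4 and 65.7 CPM after 6 h, then 16.7 and 11.9 CPM after 24 h. It rose by 2.32 ± 0.56 (adjusted p = 0.0278) and fell by 2.11 ± 0.54 (adjusted p = 0.0261). In tbGFP-positive cells at 6 h it was at 8.45 and 37.3 CPM, with the replicates apart and no call. H1f0, the linker histone of non-dividing cells, stood at 181 and 169 CPM before sorbitol and at 74.8 and 69.5 CPM after 24 h in tbGFP-negative cells (it fell by 1.28 ± 0.21, adjusted p = 0.00184), and was higher in tbGFP-positive cells at 24 h by 1.14 ± 0.21 (adjusted p = 0.00206). Cenpa, the centromeric H3, fell by 1.72 ± 0.31 at 6 h in tbGFP-positive cells (adjusted p = 0.00669) and rose from 6 to 24 h in both fractions (1.44 ± 0.30 and 1.84 ± 0.31, adjusted p = 0.00699 and 0.00335). Some variants that most cells use stood near 0: H2afz, with 7 annotated transcripts, was at 0 to 9.05 CPM and H3f3b, with 4, at 1.51 to 10.9 CPM. As 60 of the 62 members have a single transcript in the files, levels of members and of such genes cannot be compared.

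Genes of S phase, when replication-dependent histones are made, were tested for 33 of 35 listed. At 6 h in tbGFP-negative cells Pcna, the sliding clamp of the DNA polymerases, rose by 1.03 ± 0.20 (adjusted p = 0.00848). From 6 to 24 h 7 fell and 1 rose there, where 4.3% of all genes were called lower and 3.62% higher. The smallest adjusted p-values were those of Pola1, of the primase complex (fell by 1.08 ± 0.16, adjusted p = 0.00059), the helicase gene Mcm4 (0.96 ± 0.15, adjusted p = 0.000738) and Pcna (1.12 ± 0.20, adjusted p = 0.00261). The median over the 33 genes was 0.22, above the all-gene median of 0.16, and 18 of the 33 had a positive difference. In tbGFP-positive cells 4 fell and 2 rose over the same time, where 2.9% of all genes were called lower and 5.91% higher. Of 22 tested genes of G2 and M phase, 4 fell from 6 to 24 h in tbGFP-negative cells, with Top2a at -0.80 ± 0.15 (adjusted p = 0.00424).

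All 10 pluripotency markers were tested, and their summed level was 7436 to 10727 CPM, so the labelled cell type's markers are present. All 16 markers of 2-cell-like cells that were tested were higher in tbGFP-positive cells at each time. Markers of primitive endoderm summed to 123 to 307 CPM, of fibroblasts to 45.5 to 83.0 CPM, and of mesoderm and ectoderm to 6.30 to 45.5 CPM. Those of trophectoderm summed to 66.5 to 106 CPM in tbGFP-negative cells. In tbGFP-positive cells they summed to 98.8 and 172 CPM before sorbitol, 250 and 257 CPM after 6 h, then 122 CPM in both libraries after 24 h, so this sum, like the germline pair, was highest at 6 h. Of the 7 tested, 1 was called higher in tbGFP-positive cells at 6 h and 3 were called lower from 6 to 24 h. Of all genes, 2.14% were called higher at 6 h against 0 h in these cells and 2.9% lower from 6 to 24 h. Between fractions at 6 h 12.1% were called. Krt8 stood at 88.1 and 116 CPM and Krt18 at 112 and 106 CPM in tbGFP-positive cells at 6 h. There Tead4 was at 42.2 and 18.9 CPM, and Cdx2, Hand1 and Tfap2c had no counts, which need not mean absence. The part of these markers in the results on histone genes was not tested.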

How the data were processed

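Total RNA of the 12 libraries was sequenced after a TruSeq Stranded preparation. Whether RNA with a poly(A) tail was selected is not stated here, and levels of mRNAs that end in a stem-loop depend on it. Some annotated models run on past the stem-loop, by 4884 bases in Hist1h1d and 1643 bases in Hist3h2a. The authors deposited raw read counts per Ensembl transcript, and the submitters' processing notes name FastQC, HISAT2, featureCounts, DESeq2 and mm10. Versions, strandedness of the counting and the treatment of multi-mapping reads are not given in the sources used here. The design expected counts per gene. Transcript counts were therefore summed per GENCODE M21 gene, and 0.0606% to 0.0903% of a library's counts matched no M21 gene.

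A limit of 10 counts in any 2 or more libraries left 19384 genes, which were fitted with edgeR 4.0.16 in R 4.3.3 (TMM factors of 0.859 to 1.24, group means over 12 libraries, robust quasi-likelihood test), in 9 comparisons and 2 interactions, with Benjamini-Hochberg adjustment. All adjusted p-values printed are from edgeR unless DESeq2 1.42.0 is named. Intervals are 95% and cover the fitted error only. The script was tested on simulated data for 6 h against 0 h in tbGFP-negative cells, with 200 of 17755 genes changed. It called 14% of the 2-fold and 71% of the 4-fold changes, with 1 false call. A missing call therefore does not show that a level stayed the same. Alternatives were other scalings, no count filter, a replicate block, the compared groups alone, DESeq2, and each library left out. Leaving out both tbGFP-positive libraries at 6 h was chosen after seeing the data.

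The members and gene lists were chosen with earlier results of these data known. Named members were the germline pair, Hist1h1t, the 2 replication-dependent genes of each type with the most counts, and up to 5 called members in each direction per comparison whose groups did not overlap. Of each other list up to 4 called genes with the smallest adjusted p were named, with Slbp, Npat and Casp8ap2. Any others were named after their values were seen. The values of 1 gene of the S phase list are not reported here. Sequences are from RefSeq (GRCm38.p6) and GENCODE M21.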

Additional observations from a re-analysis of the deposited data

How the results depend on the processing

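Of 22 called values of named genes, 8 kept their call in every alternative and none changed sign. Of 121 that were not called, 65 changed sign somewhere and 31 were called somewhere. The difference of Hist1h2bb from 6 to 24 h in tbGFP-positive cells was -0.09, and ran from -0.49 to 0.60 when libraries were left out in turn, the highest (adjusted p = 0.0192) without replicate 1 of the 6 h tbGFP-positive group and the lowest (adjusted p = 0.0372) without replicate 2, both calls. The cause was not tested for any change given here. Counts of members called were as follows where they moved beyond 1.5 times. Between fractions at 6 h the count of 0 became 5 with upper-quartile factors, 1 with library totals, 7 without the count filter, 1 with the compared groups alone and 3 by DESeq2. At 24 h it became 1, 1, 3, 4 and 2 under the same settings, and 3 without both tbGFP-positive libraries at 6 h. In tbGFP-negative cells the 3 called at 6 h became 6 with library totals, 6 without the filter and 17 with the groups alone. The 1 called at 24 h against 0 h became 2 with upper-quartile factors, 2 with library totals, 12 without the filter, 21 with the groups alone, 6 without both tbGFP-positive libraries at 6 h and 3 by DESeq2. The 5 called at 24 h against 6 h became 9 without the filter, 43 with the groups alone and 10 without both libraries. In tbGFP-positive cells the 4 at 6 h became 12 without the filter and 1 with the groups alone, the 1 at 24 h became 3 without both libraries, and the 6 at 24 h against 6 h became 10 without the filter and 0 with the groups alone. The interaction at 6 h went from 0 to 2 without the filter and 1 by DESeq2, and that at 24 h from 0 to 1 without both libraries.

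Leaving out each library in turn gave 1 to 3 members between fractions at 0 h, 0 to 7 at 6 h and 0 to 3 at 24 h. In tbGFP-negative cells it gave 3 to 4 at 6 h, 0 to 6 at 24 h against 0 h and 4 to 10 at 24 h against 6 h, and in tbGFP-positive cells 3 to 7, 0 to 3 and 4 to 12. The interactions gave 0 to 3 and 0 to 1. Whether replicate numbers pair the samples is not given in the labels. Over all tested genes, none of 15 pairs of groups had a correlation of same-numbered deviations over 0.1 (-0.04 to 0.03). That cannot show whether histone genes share a replicate shift. Replicate 1 was above replicate 2 for 36 to 54 of 57 replication-dependent genes in each group but tbGFP-negative cells at 24 h (22). A replicate block gave 1 call between fractions at 6 h, 2 at 24 h against 0 h in tbGFP-negative cells and 1 for the interaction at 6 h, and stayed within 1.5 times elsewhere. Depth limits the low H2A genes most, since 3 counts are 0.38 to 1.30 CPM.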
